A study of Mus musculus with 8 samples.

Results

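The Skint genes encode a mouse family of butyrophilin-like surface proteins of keratinocytes, the cells that build the epidermis. Their levels were measured in total RNA from the epidermis of newborn C57BL/6J mice, in 4 samples of genotype ZFP750-/- (knockout 1 to 4) and 4 wild-type samples (wild type 1 to 4). Zfp750 encodes a zinc finger protein of differentiating keratinocytes, and no other allele or treatment is named for either genotype. The sources used here do not say which part of Zfp750 was deleted. The members were all rows whose symbol begins with Skint and a digit, which were 11 of the 15995 genes listed, Skint1 to Skint11. All 11 had a value in each of the 8 libraries, and all 11 passed the filter on low values that left 11395 genes for testing (1 FPKM or more in at least 4 of the 8 libraries). The members were chosen by symbol, but the family was selected on its measured FPKM in knockout and wild type, with Cd3g named beside it. Those values are therefore given as a description without p-values for the members or for Cd3g, and nothing is rested on the counts of members called.

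Skint1, the founding member, is needed in the thymus for the selection of dendritic epidermal T cells, the γδ T cells that come to live between mouse keratinocytes and watch over them. Skint proteins carry immunoglobulin-like domains outside the cell and several membrane-spanning segments. They are found in thymic epithelium and in keratinocytes of the upper, suprabasal layers. Skint2 is also known as B7S3 and was described as a brake on T cell activation, and Skint3 and Skint9 were linked to the dialogue between keratinocytes and these T cells during wound repair in mice. The separate roles of the other members are less well known.

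The libraries matched their labels at the targeted gene. Zfp750 stood at 1.53 to 2.68 FPKM (fragments per kilobase of transcript, scaled to the size of the library, hence a level per length) in the knockouts and at 81.6 to 119 FPKM in the wild types. The summed FPKM was 483416 to 577300 per library, and read counts and depth are unknown. Sample titles carry a code, 11, 14 or 44, whose meaning is not stated. Code 11 covers knockout 1 and wild type 4, code 14 knockout 2 and wild type 3, and code 44 knockouts 3 and 4 with wild types 1 and 2. The titles of knockouts 1 and 2 carry the same number, 1, and nothing says which samples came from separate animals, so p-values measure the spread between these samples, which may be technical. Knockout 4 stood apart from the other knockouts, with 2586 FPKM for the summed basal keratinocyte list against 4932 to 6823. The wild types also differed among themselves, with 1278 and 1920 FPKM in wild types 1 and 2 and 3026 and 3952 FPKM in wild types 3 and 4.

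The 11 genes lie in 1 run on chromosome 4, from 111919392 to 114245028 (GRCm38, GENCODE M21), a stretch of 2.33 Mb. From one end to the other the order is Skint8, Skint7, Skint1, Skint4, Skint3, Skint9, Skint2, Skint10, Skint6, Skint5 and Skint11, with Skint9, Skint10, Skint6 and Skint5 on the minus strand. The annotation places 14 other genes within this stretch, none of them protein-coding and none with a row in the table. Skint4, Skint2, Skint6 and Skint11 overlap some of these 14 genes, partly on the opposite strand, and whether strand was used in counting is not given. Of the stretches of 75 bases, 1 read length, in the annotated transcripts of Skint7, 4.6% also occur in Skint8, and 3.91% of those of Skint8 occur in Skint7. For Skint5 and Skint6 the shares were 1.08% and 1.28%, so the values of these 4 genes are slightly uncertain. For the other 7 members no such stretch occurred in another member.

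Promoter windows of RefSeq (GRCm38.p6), 250 bases before to 50 after a start, were available for all 11 genes, with 2 windows for Skint4. Those of 3 genes are shown because Skint10 and Skint11 have closely related promoters and stood on opposite sides of wild type in the knockouts, while Skint9 and Skint10 were low together. The windows are chr4:112433936-112434235 on the minus strand for Skint9, chr4:112774812-112775111 on the minus strand for Skint10 and chr4:114163134-114163433 on the plus strand for Skint11. Capitals mark the 7 letters that align with the AP-1 motif TGANTCA of the Skint11 window.
Skint9: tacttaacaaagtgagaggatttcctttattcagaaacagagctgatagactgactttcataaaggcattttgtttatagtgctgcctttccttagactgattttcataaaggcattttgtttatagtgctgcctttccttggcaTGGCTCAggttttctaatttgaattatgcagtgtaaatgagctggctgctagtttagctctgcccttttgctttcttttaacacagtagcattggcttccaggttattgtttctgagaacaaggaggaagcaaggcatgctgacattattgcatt
Skint10: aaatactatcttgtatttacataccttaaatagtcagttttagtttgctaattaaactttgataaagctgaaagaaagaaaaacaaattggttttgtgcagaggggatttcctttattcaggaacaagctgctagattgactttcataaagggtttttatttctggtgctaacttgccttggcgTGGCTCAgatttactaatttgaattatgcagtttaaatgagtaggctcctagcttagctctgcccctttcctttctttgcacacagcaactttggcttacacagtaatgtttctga
Skint11: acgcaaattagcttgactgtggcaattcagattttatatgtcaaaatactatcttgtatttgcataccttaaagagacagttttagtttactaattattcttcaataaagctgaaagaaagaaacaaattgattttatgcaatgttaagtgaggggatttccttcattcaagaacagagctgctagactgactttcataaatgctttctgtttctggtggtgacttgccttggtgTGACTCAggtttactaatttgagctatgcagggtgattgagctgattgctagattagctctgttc

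The Skint10 and Skint11 windows aligned over 256 columns at 82.0% identity, and the Skint9 and Skint10 windows over 168 columns at 82.1% identity. Counted from 1 at the 5′ end of each window, the AP-1 letters of Skint11 are at positions 236 to 242. The aligned letters of Skint10 and Skint9 are TGGCTCA, which differ from those of Skint11 by G187A in Skint10 and G148A in Skint9 (the Skint10 or Skint9 base first, then that of Skint11). Skint11 was the only 1 of the 12 Skint windows with TGANTCA on either strand, against 7.81% of 32851 windows of all genes. The sequence CCNNAGGC, reported for human ZNF750, occurred in 0 of the 12 windows and in 24.1% of all windows. The KLF box GGGTG occurred in 8 of 12 windows and in 57.5% of all, TATAAA in 8 of 12 and in 13.6% of all. CCAAT occurred in 4 of 12 and in 37.4%, and the STAT motif TTCNNNGAA in 2 of 12 and in 8.30%. All 6 motifs were searched on both strands with overlapping matches kept, so that the AP-1 and STAT letters, which read alike on both strands, count once per window. In the Skint windows no match of one motif overlapped a match of another. Skint windows held a median of 38.5% G and C, against 52.7% over all windows. A match here is a run of letters and not a measured binding site.

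The windows of Skint5, chr4:113999454-113999753, and Skint6, chr4:113286924-113287223, both on the minus strand, are shown because they are the closest pair of the family while their genes differed in how low they were. They aligned without a gap over 300 bases at 89.7% identity, and capitals mark the 31 differing bases.
Skint5: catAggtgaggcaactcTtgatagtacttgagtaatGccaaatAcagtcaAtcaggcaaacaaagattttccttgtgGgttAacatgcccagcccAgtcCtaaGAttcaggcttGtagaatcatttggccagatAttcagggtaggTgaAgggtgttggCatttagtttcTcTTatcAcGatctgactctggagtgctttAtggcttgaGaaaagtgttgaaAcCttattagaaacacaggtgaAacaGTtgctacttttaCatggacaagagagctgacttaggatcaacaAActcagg
Skint6: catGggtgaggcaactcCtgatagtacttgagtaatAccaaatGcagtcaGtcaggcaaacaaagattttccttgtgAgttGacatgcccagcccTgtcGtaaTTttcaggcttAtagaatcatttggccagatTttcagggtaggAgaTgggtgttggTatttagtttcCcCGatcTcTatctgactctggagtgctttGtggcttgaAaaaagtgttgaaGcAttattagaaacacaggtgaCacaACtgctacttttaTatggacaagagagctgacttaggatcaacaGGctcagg

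In wild-type epidermis Skint9 was the most abundant member, at 207 ± 41.7 FPKM (SD, n = 4), and it alone made up 37.9% to 45.1% of the summed Skint FPKM. Its lowest wild-type value lay above the highest of Skint3, the next in order. Skint3 (62.7 ± 1.94 FPKM), Skint1 (61.8 ± 8.89) and Skint6 (50.1 ± 5.26) followed, and Skint3 and Skint1 changed places between libraries. Skint10 averaged 43.0 ± 13.6 FPKM, Skint2 23.2 ± 5.76, Skint4 18.6 ± 5.71 and Skint5 11.4 ± 1.49, each with a range that overlapped that of its neighbours. Skint7 (9.62 ± 1.60 FPKM) stood clear of the last 2, Skint8 (3.56 ± 0.696) and Skint11 (2.61 ± 1.93), whose ranges overlapped. In the knockouts the order was different and less sharp. Skint9 (44.2 ± 34.7 FPKM), Skint3 (41.4 ± 16.5) and Skint1 (39.6 ± 21.4) led with overlapping ranges, and no member's range stood clear of the next one.

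The summed Skint level was lower in the knockouts. Knockouts 1 to 4 had 113, 131, 204 and 349 FPKM in sum, and wild types 1 to 4 had 554, 556, 422 and 444 FPKM, without overlap. Fewer cells of a type and less RNA per cell cannot be told apart in whole epidermis. The ratio of the means was 0.404, and without Skint9 it was 0.541. Of the 11 members, 5 were called lower and 1 higher by limma over all genes (Benjamini-Hochberg adjusted p under 0.05). Over all 11395 genes, 8.94% were called lower and 6.72% higher. The groups did not overlap, with the knockouts lower, for the same 5 members and for 12.5% of all tested genes, and for 0 members with the knockouts higher, against 8.78%. The median log2 difference, knockout minus wild type on log2(FPKM + 1), was -0.94 over the 11 members and 0.01 over all tested genes. Without knockout 4, 9 members were called lower, where 10.7% of all genes were. With title codes 11 and 14 alone 9 members were called lower, where 8.87% of all genes were, and with code 44 alone 4 members, where 5.13% of all genes were.

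**Figure D1:**
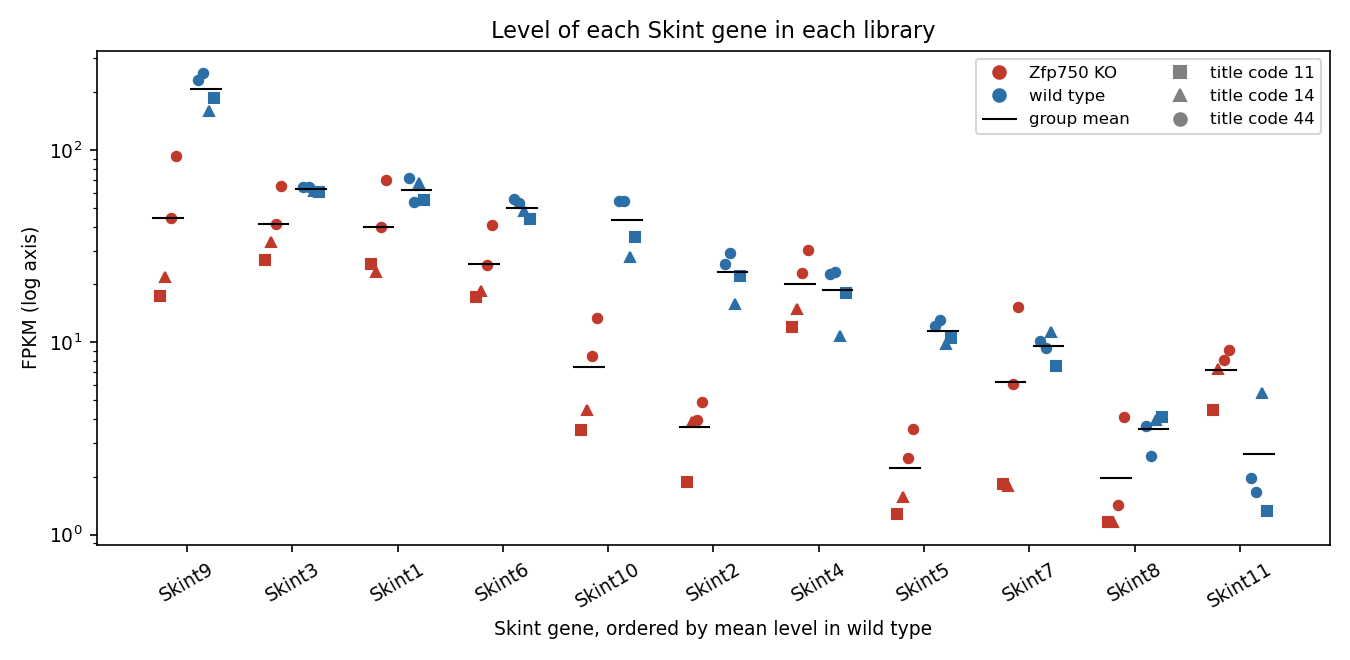
FPKM of each Skint gene (log axis) in each library, knockouts left and wild types right, with bars for group means and symbols for the title codes. The 5 genes whose groups do not overlap are Skint9, Skint6, Skint10, Skint2 and Skint5, and Skint11 is lowest of all in wild type and has a knockout mean above its wild-type mean.

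For Skint9, the most abundant member, knockouts 1 to 4 had 17.4, 22.0, 44.5 and 93.1 FPKM, whereas wild types 1 to 4 had 232, 251, 159.9 and 186 FPKM. Every knockout lay below every wild type, with a ratio of means of 0.214 and a log2 difference of -2.48 ± 0.45 (SE). Skint10 had 3.50, 4.45, 8.47 and 13.3 FPKM in the knockouts and 54.5, 54.6, 27.7 and 35.2 FPKM in the wild types (log2 difference -2.48 ± 0.37). These groups did not overlap either, and the ratio of the means was 0.173. Among all other genes tested, Skint10 was the one with a pattern most like that of Skint9, and Skint9 the one most like Skint10. The measure was the root mean square difference between profiles centred over the 8 libraries, 0.22 on the log2 scale. Their profiles had in common that wild types 1 and 2 were above wild types 3 and 4, and knockouts 3 and 4 above knockouts 1 and 2. Neither trait was particular to this pair, since the first held for 7 members and the second for all 11.

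Skint2, the brake on T cell activation, had 1.89, 3.83, 3.95 and 4.92 FPKM in the knockouts and 25.7, 29.3, 15.7 and 22.2 FPKM in the wild types. The groups were far apart, with a ratio of means of 0.157, the lowest of the family, and a log2 difference of -2.39 ± 0.25. Skint5 had 1.28, 1.57, 2.50 and 3.54 FPKM in the knockouts and 12.1, 13.1, 9.77 and 10.6 FPKM in the wild types, a ratio of 0.195 (-1.99 ± 0.22). Skint6, whose promoter is the closest relative of that of Skint5, had 17.3, 18.4, 25.4 and 40.8 FPKM in the knockouts and 55.3, 53.2, 48.4 and 43.5 FPKM in the wild types. Its ratio was 0.508 (-1.03 ± 0.24), and knockout 4 lay just below wild type 4. The FPKM of Skint5 divided by that of Skint6 gave 0.0741 to 0.0984 among knockouts and 0.202 to 0.246 among wild types, without overlap.

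Skint1, needed for the selection of dendritic epidermal T cells, was not called. It had 25.7, 23.1, 39.8 and 69.7 FPKM in the knockouts and 71.3, 53.8, 67.6 and 54.7 FPKM in the wild types, and knockout 4 alone lay within the wild-type range (log2 difference -0.76 ± 0.30). Skint3 had 26.9, 33.1, 41.1 and 64.6 FPKM in the knockouts and 64.5, 64.3, 61.3 and 60.8 FPKM in the wild types (-0.66 ± 0.23), with knockout 4 just above the highest wild type and the other 3 knockouts below all wild types. Skint7 had 1.84, 1.80, 6.04 and 15.2 FPKM in the knockouts and 10.2, 9.39, 11.3 and 7.54 FPKM in the wild types (-0.94 ± 0.50), with knockout 4 above all wild types. Skint8, at 1.16, 1.16, 1.42 and 4.11 FPKM in the knockouts and 3.67, 2.55, 3.94 and 4.09 FPKM in the wild types (-0.71 ± 0.28), was likewise just above all wild types in knockout 4 and below them in the other 3 knockouts. These 4 genes were called lower when knockout 4 was left out.

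Skint4 and Skint11 did not share this direction. Skint4 had 12.0, 14.9, 23.0 and 30.03 FPKM in the knockouts and 22.7, 23.1, 10.8 and 17.97 FPKM in the wild types, with groups that overlapped widely (0.07 ± 0.31). Its sign turned when knockout 3, knockout 4 or wild type 3 was left out, with array weights and with title codes 11 and 14 alone. Skint11 had 4.45, 7.25, 8.05 and 9.14 FPKM in the knockouts and 1.97, 1.67, 5.48 and 1.33 FPKM in the wild types. Wild type 3 lay above knockout 1, and the other 3 wild types lay below all knockouts. The ratio of means was 2.76 and the log2 difference 1.28 ± 0.33, the 1 rise called among the 11. The call was lost without knockout 2, knockout 3, wild type 1, wild type 2 or wild type 4, and with title codes 11 and 14 alone, where the difference was 0.79 ± 0.47.

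Within the title codes the knockout to wild-type ratio of Skint9 was 0.0936 for code 11, 0.137 for code 14 and 0.285 for code 44. For Skint10 it was 0.0994, 0.160 and 0.200, for Skint2 0.0851, 0.244 and 0.161, for Skint5 0.121, 0.161 and 0.239, and for Skint6 0.397, 0.380 and 0.610. That these 5 genes were lower in the knockouts within each code follows from their groups not overlapping, and is no separate result. Skint1, Skint3 and Skint8 were also below 1 in each code. Skint1 had ratios of 0.469 and 0.342 in codes 11 and 14 and of 0.877 in code 44, and Skint7 of 0.244, 0.159 and 1.08. Skint3 had 0.442, 0.541 and 0.821, and Skint8 0.284, 0.294 and 0.889, nearest to 1 in code 44. Skint4 stood at 0.668, 1.37 and 1.16. Skint11 was higher in the knockout within each code, with ratios of 3.34, 1.32 and 4.73. All 11 members, Skint11 and Skint4 included, were higher in both knockouts of code 44 than in knockouts 1 and 2, and all 11 were highest in knockout 4. In the wild types the code 44 libraries were above the other 2 for 7 of the 11. These counts were not made over all genes, so they do not show a trait particular to the Skint genes.

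**Figure D2:**
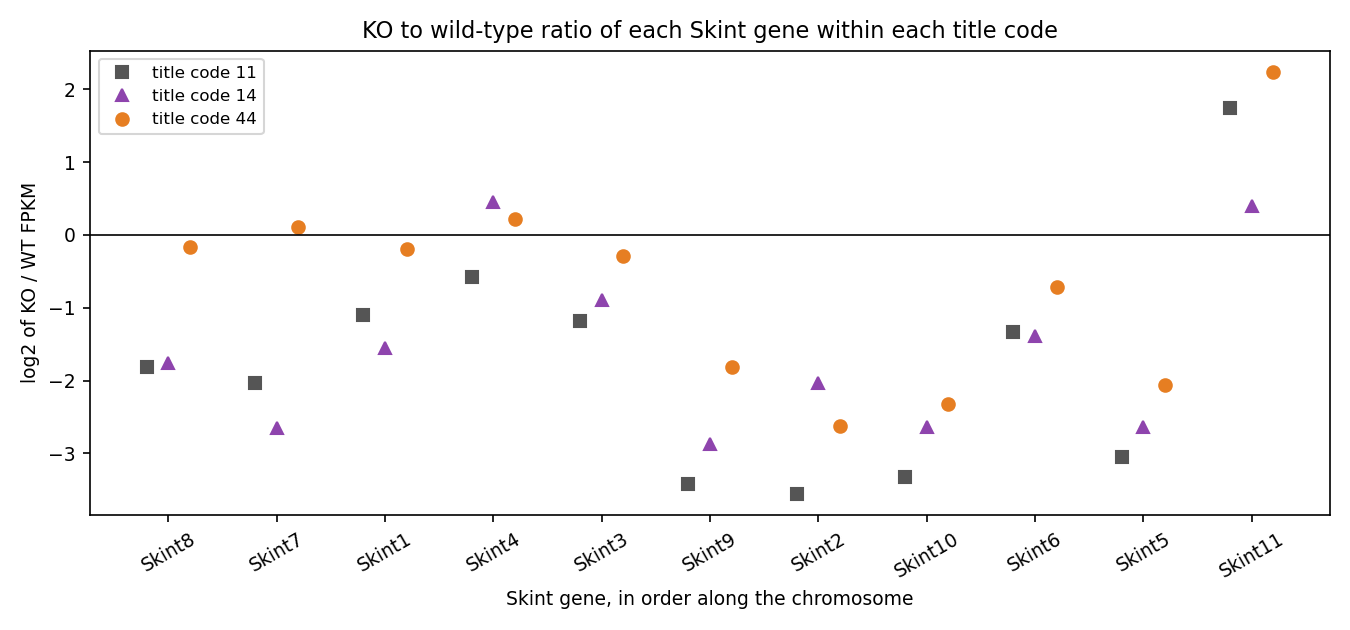
Log2 of the knockout to wild-type FPKM ratio of each Skint gene within each title code (means of 2 libraries each for code 44), in the order of the genes along the chromosome. The points of Skint9, Skint2, Skint10, Skint6 and Skint5 all lie below 0, and so do those of Skint1, Skint3 and Skint8. Those of Skint11 lie above 0, and those of Skint7 and Skint4 on both sides.

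The same values were also expressed as shares of the Skint signal, which depend on one another. Of the summed Skint FPKM, Skint9 took 20.1 ± 5.19% among knockouts and 41.7 ± 2.96% among wild types (SD, n = 4 each). Skint10 took 3.61 ± 0.466% and 8.54 ± 1.58%, and Skint2 1.98 ± 0.658% and 4.66 ± 0.670%. The shares of Skint1 (19.9 ± 2.10% among knockouts and 12.7 ± 2.60% among wild types), Skint3 (21.9 ± 3.08% and 12.9 ± 1.49%) and Skint4 (10.4 ± 1.26% and 3.72 ± 0.769%) were larger in the knockouts. Skint11 made up 4.00 ± 1.18% among knockouts and 0.564 ± 0.491% among wild types. The share of Skint5 was smaller in the knockouts (1.14 ± 0.0925% and 2.31 ± 0.0902%) and that of Skint6 larger (13.3 ± 1.59% and 10.2 ± 0.852%). For these 9 genes the shares of the groups did not overlap, whereas those of Skint7 and Skint8 did, and this count has no counterpart over all genes. A smaller share of Skint9 makes other shares larger. Skint1, Skint3 and Skint6 had larger shares though their mean FPKM was lower in the knockouts (ratios 0.640, 0.661 and 0.508). Knockout 4, whose summed level came nearest to wild type, had 26.7% Skint9, against at least 37.9% in the wild types. The ratio of Skint10 to Skint11 was 0.614 to 1.46 among knockouts and 5.06 to 32.7 among wild types, with the lowest wild-type value in wild type 3.

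**Figure D3:**
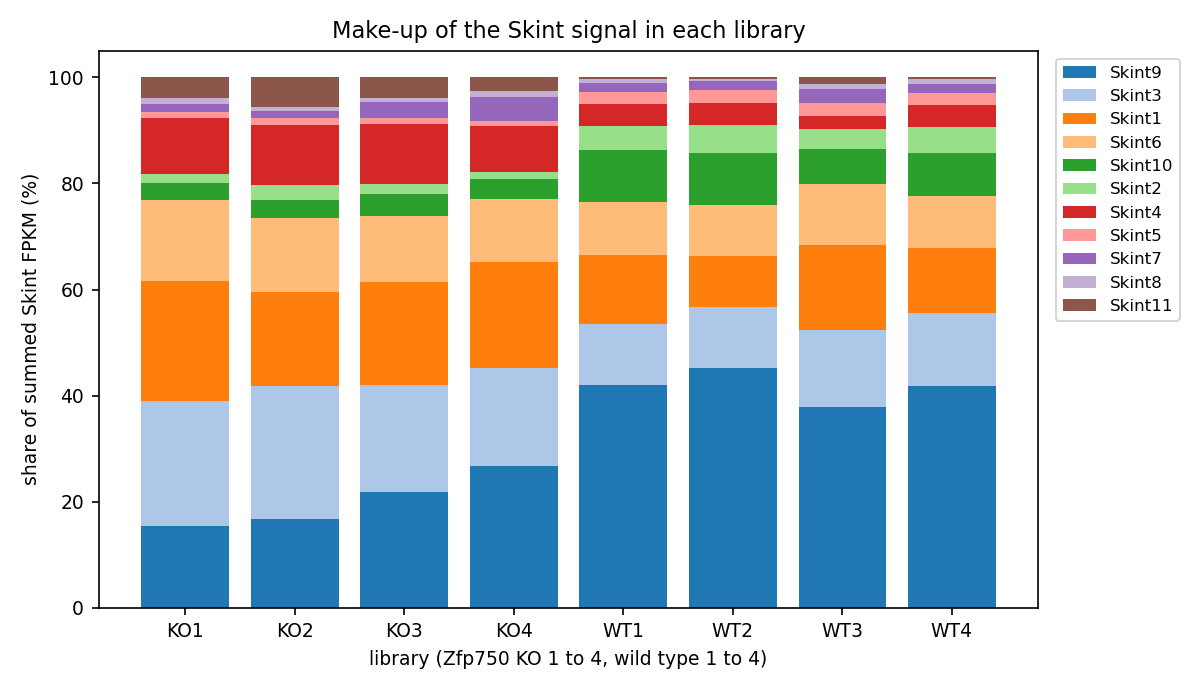
Share of each member in the summed Skint FPKM (percent) in knockouts 1 to 4 and wild types 1 to 4. Skint9, at the foot of each bar, takes 15.3% to 26.7% in the knockouts and 37.9% to 45.1% in the wild types.

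T cells were followed by Cd3g, a chain of the CD3 complex of the T cell receptor, which does not single out the cells that Skint1 selects. For Cd3g there were 0.484, 0.484, 0.967 and 0.408 FPKM in the knockouts and 3.10, 3.79, 2.56 and 2.00 FPKM in the wild types, and the groups did not overlap. The ratio of the means was 0.205 and the log2 difference -1.28 ± 0.19. Besides Cd3g, a list of T cell and dendritic epidermal T cell genes held 45 genes. Of these, 22 had a row in the table and 10 were tested. None of its γδ T cell receptor genes had a row, so dendritic epidermal T cells were not measured apart from other T cells. Of the 10 tested, 3 fell, 0 rose and 7 did not pass (limma), with a median log2 difference of -0.30, against 0.01 over all tested genes. Over all tested genes 8.94% fell and 6.72% rose. The 3 that fell were Ptprc, the CD45 phosphatase of blood cells (-1.48 ± 0.16, limma adjusted p = 3.02e-04), the Fc receptor chain Fcer1g (-2.11 ± 0.23, limma adjusted p = 2.75e-04) and the T and NK cell cathepsin Ctsw (-0.90 ± 0.20, limma adjusted p = 0.0154). Cd3g, Ptprc and Ctsw were below 1 FPKM in every knockout and passed the filter on low values through the wild types alone. The log2 differences of the 7 that did not pass ran from -0.65 for Thy1 to 0.07 for Il2rg. Those of Ccr4, Ccr10, Sema4d, Lck and Cxcr6 lay between. Il2rg, the shared chain of several cytokine receptors, had 1.20 to 3.77 FPKM in the knockouts and 1.36 to 3.71 FPKM in the wild types. Lck, a kinase of T cell receptor signalling, had 0.188 to 1.09 FPKM in the knockouts and 0.549 to 1.08 FPKM in the wild types, so both genes overlapped widely. The other CD3 complex chains with a row were below the filter. Cd3e had 0.151 to 0.391 FPKM in the knockouts and 0.644 to 1.92 FPKM in the wild types, and Cd247 had 0.0326 to 0.176 and 0.365 to 0.751 FPKM, both without overlap. Cd3d, at 0 to 0.209 FPKM in the knockouts and 0.187 to 0.939 FPKM in the wild types, overlapped. With the 12 untested genes included, the groups did not overlap, with the knockouts lower, for 10 of the 22 listed genes and for 11.3% of all listed genes. The knockouts were higher without overlap for 0 of the 22 and for 7.43% of all listed genes. With no filter 10 of the 22 were called lower, where 1211 of all 15991 genes were. With Cd3g the list summed to 23.7 to 29.4 FPKM in the knockouts and 46.1 to 59.9 FPKM in the wild types. Sema4d, which did not pass, averaged 10.4 FPKM in the knockouts and 11.8 FPKM in the wild types. Fcer1g, not a gene of T cells alone, averaged 1.59 and 10.1 FPKM, so the sum is no measure of T cells alone. Cd2 and Cd3d had no value in knockout 2, and Cd7 none in knockouts 2 and 4.

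Knockout 4 had the highest level of all 11 Skint genes among the knockouts and the lowest Cd3g. The Cd3g values of knockouts 1, 2 and 4 were close, at 0.484, 0.484 and 0.408 FPKM. The precision of such low values is unknown. Of the other CD3 chains, Cd247 was highest among the knockouts in knockout 4, at 0.176 FPKM, whereas Cd3e and Cd3d were not. Fcer1g and Ptprc are also expressed by Langerhans cells, the macrophage-like cells of the epidermis. Of the Langerhans cell list 12 of 14 genes were listed, 7 were tested, and 6 of these fell and none rose (limma), with Ctss, a cathepsin of antigen-presenting cells, at -3.26 ± 0.19 (limma adjusted p = 1.29e-05). Ctss and some others of the 6 were below 1 FPKM in every knockout and passed the filter through the wild types alone. The shares over all tested genes were 8.94% lower and 6.72% higher. The list summed to 12.5 to 18.2 FPKM in the knockouts and 75.3 to 98.8 FPKM in the wild types. Among the 6 that fell, Il34 is a keratinocyte cytokine that keeps Langerhans cells alive. It was at 8.50 to 14.4 FPKM in the knockouts and 32.0 to 45.8 FPKM in the wild types. Il34 was the largest term of the sum in every library, so count and sum are not of Langerhans cell genes alone. The part of these cells in the values of Ptprc and Fcer1g was not tested.

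**Figure D4:**
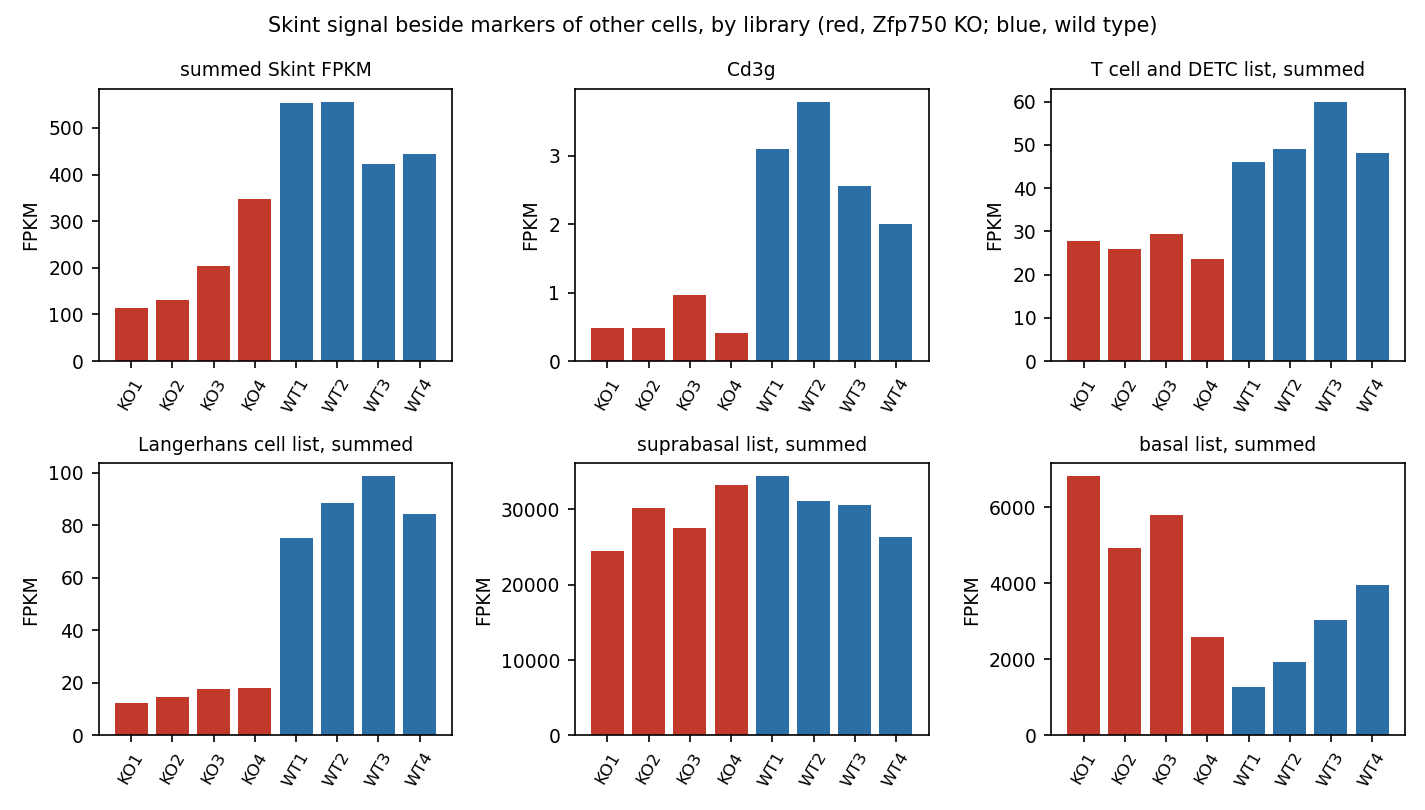
Summed FPKM of the Skint genes, of Cd3g and of 4 marker lists in each library, knockouts in red on the left and wild types in blue on the right. Skint, Cd3g, T cell and Langerhans bars are lower in every knockout than in every wild type, while the suprabasal and basal lists overlap. The Langerhans list includes the keratinocyte cytokine Il34, its largest term. The T cell list includes Sema4d and Fcer1g, on average its largest terms in the wild types, and Fcer1g is also expressed by Langerhans cells.

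Keratinocytes also hold signals that act on dendritic epidermal T cells. The list used was broader, and some of its genes, such as Mr1, Vdr, Ahr and Egr3, are not such signals. Of its 23 genes 19 were listed and 15 tested, and 3 rose, 2 fell and 10 did not pass (median log2 difference 0.07). Among all tested genes 6.72% rose and 8.94% fell. Il15, a cytokine that these T cells need to survive, was at 0.420, 0.922, 0.825 and 1.65 FPKM in the knockouts and 3.89, 6.28, 3.23 and 2.92 FPKM in the wild types (-1.37 ± 0.25, limma adjusted p = 0.00538). Like the Skint sum it was highest among the knockouts in knockout 4. Mr1, a molecule that presents antigens to unusual T cells, fell to 2.21 to 3.12 FPKM in the knockouts, against 4.83 to 7.45 FPKM in the wild types (-1.04 ± 0.17, limma adjusted p = 0.00291). Plxnb2, a receptor for the T cell protein CD100 (0.52 ± 0.11, limma adjusted p = 0.0136), and Cxadr, the ligand of the T cell costimulator JAML (0.45 ± 0.12, limma adjusted p = 0.0334), rose. The third rise was that of the cytokine Tslp, at 2.93 to 3.84 FPKM in the knockouts and 0.0776 FPKM in wild type 3, wild types 1, 2 and 4 being without a value (adjusted p = 1.84e-05 by limma). Tslp passed the filter on low values through the knockouts alone. H60c, a skin ligand of the activating receptor NKG2D, did not pass (limma adjusted p = 0.305). It was at 51.3 to 98.5 FPKM in the knockouts and 68.9 to 129.5 FPKM in the wild types.

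Skint genes are expressed by suprabasal keratinocytes, and the markers of that layer were set beside them. Of 24 suprabasal genes, all listed, 22 were tested, and 1 rose, 4 fell and 17 did not pass (median log2 difference -0.12). For this list and the basal one, the shares over all tested genes were 6.72% higher and 8.94% lower. Ivl, an envelope precursor, rose by 1.46 ± 0.19 on the log2 scale, and Krt78 (-2.12 ± 0.17), Krt80 (-1.05 ± 0.17), the adhesion protein Cdsn (-1.17 ± 0.18) and the cornification caspase Casp14 (-1.40 ± 0.25) fell. Krt1 and Krt10, left out of the sum, are listed at 0 in 6 libraries. The other 22 genes summed to 24435 to 33298 FPKM in the knockouts and 26305 to 34415 FPKM in the wild types, which overlap. Per 1000 FPKM of this sum, the Skint genes had 4.64, 4.36, 7.43 and 10.5 FPKM in the knockouts and 16.1, 17.9, 13.8 and 16.9 FPKM in the wild types, which do not overlap. Of 15 basal genes, 7 rose and none fell in limma (median 0.86), and the 4 with the smallest p were the integrin genes Itgb1 (2.46 ± 0.33) and Itgb4 (2.09 ± 0.33), the hemidesmosomal collagen Col17a1 (1.49 ± 0.33) and the laminin chain Lamb3 (1.56 ± 0.38). The basal list summed to 2586 to 6823 FPKM in the knockouts and 1278 to 3952 FPKM in the wild types. Per 1000 FPKM of the basal list, the Skint genes had 16.6, 26.7, 35.2 and 134.8 FPKM in the knockouts and 433.5, 289, 139 and 112 FPKM in the wild types, and knockout 4 overlapped with the wild types. The part of this shift in the Skint values was not tested.

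Genes beside the cluster were compared in the same fit. Of 43 other annotated genes within it or within 1 Mb of its ends, 7 were listed, all of them protein-coding and outside the cluster, and 6 were tested. Of the 6, 3 fell, none rose and 3 did not pass (median log2 difference -0.58), where 8.94% of all tested genes fell and 6.72% rose. Slc5a9, a sodium-dependent sugar transporter, lies on the minus strand with its nearer edge 16.5 kb from Skint8. It had 2.30, 2.98, 4.96 and 8.07 FPKM in the knockouts and 13.0, 11.9, 14.8 and 9.71 FPKM in the wild types. Its log2 difference was -1.36 ± 0.29 (limma adjusted p = 0.0133). Pdzk1ip1, a small membrane protein gene at the far side, fell to 48.2 to 104 FPKM in the knockouts, against 115.5 to 150.4 FPKM in the wild types (-0.85 ± 0.21, limma adjusted p = 0.0224). Cmpk1, a nucleotide kinase, fell by 0.47 ± 0.13 on the log2 scale (limma adjusted p = 0.0428). Spata6, between Bend5 and Slc5a9, did not pass (-0.69 ± 0.23, limma adjusted p = 0.0770).

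The 8 tested genes outside the family with a pattern most like the summed Skint level were, in order, Dapl1, Casp14, Scel, Hspa12a, Ankrd23, Serpinb12, Slc5a9 and Bbox1. Likeness was the root mean square difference over the 8 libraries between log2(FPKM + 1) profiles centred on their means, and it ran from 0.12 for Dapl1 to 0.21 for Bbox1. Casp14 and Scel, the gene of the envelope protein sciellin, belong to late keratinocyte differentiation, and Serpinb12 is a clade B serpin. Dapl1 averaged 92.7 ± 44.3 FPKM in the knockouts and 244 ± 48.2 FPKM in the wild types (SD, n = 4 each), and Casp14 149.7 ± 64.2 and 373 ± 23.3 FPKM. Scel averaged 50.1 ± 19.6 and 119 ± 14.9 FPKM, and Serpinb12 211 ± 69.9 and 556 ± 114.5 FPKM, in the same order of groups. Bbox1, the last enzyme of carnitine synthesis, averaged 10.7 ± 5.17 FPKM in the knockouts and 32.0 ± 10.1 FPKM in the wild types. All 8 were highest among the knockouts in knockout 4 and lowest in knockout 1. The summed Skint level has that order too, and the 8 were chosen for likeness to it, so this is no separate result. Slc5a9 is thus both the nearest listed neighbour of the cluster and among the 8.

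**Figure D5:**
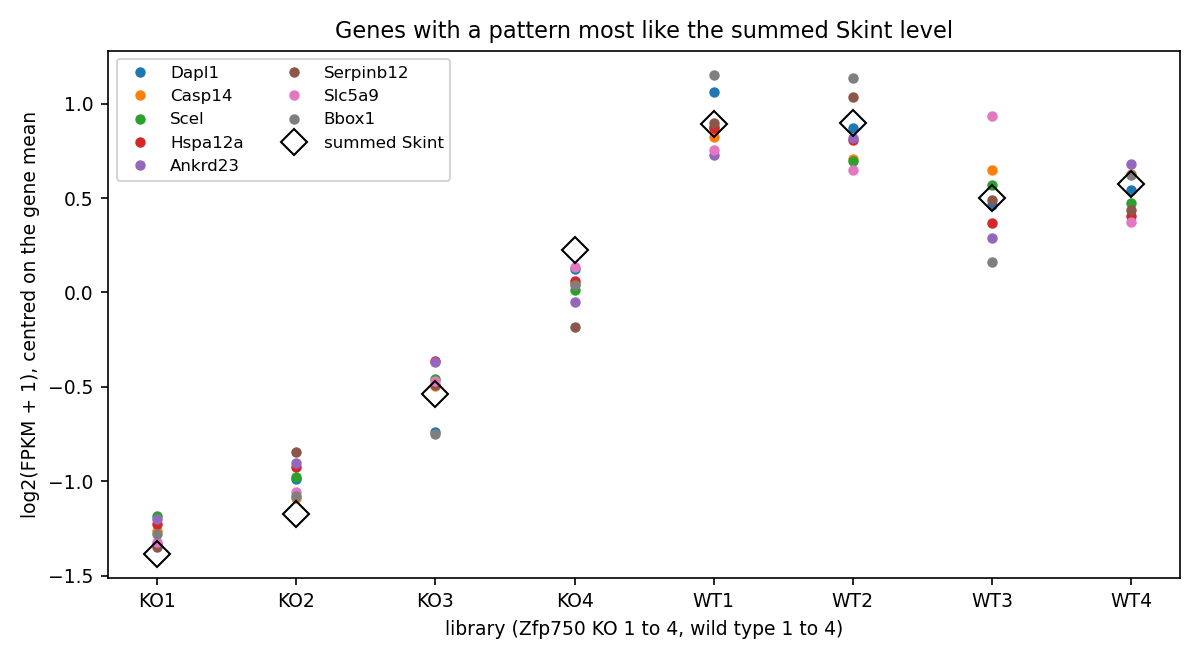
Log2(FPKM + 1) centred on each gene's mean over the 8 libraries, for the summed Skint level (open diamonds) and the 8 genes nearest to it (dots). Each of the 9 profiles is lower in every knockout than in every wild type, and highest among the knockouts in knockout 4. The 8 genes were chosen for their likeness over these same libraries.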

How the data were processed

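FPKM values, 1 per gene symbol and library, were made by the authors and deposited as a single table. Libraries were ribosome-depleted, stranded and paired-end, per the labels' protocols, and the genome build named is mm10, per the notes of the submitters on processing. The sources used here do not name the aligner, the counting program or its use of strand. Multi-mapped reads may have been split or dropped, which can move the values of related genes.

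A missing value was taken as 0. Each listed gene has a value in knockout 1. The 4 genes listed at exactly 0 in some libraries (Krt1, Krt10, Flg2 and Rn45s) were left out of tests. Genes at 1 FPKM or more in at least 4 of 8 libraries were transformed to log2(FPKM + 1), which understates changes of low genes. The genotypes were compared in R 4.3.3 by limma 3.58.1, using its trend option and Benjamini-Hochberg adjustment over 11395 genes, and the fit was tested on simulated data. FPKM carry no read counts, so no counting interval is given.

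The members and lists were chosen with earlier results of these data known. Named genes were all Skint rows, Zfp750, Cd3g, called T cell genes, up to 4 genes per other list and the 8 genes of nearest pattern. The lists named by fewer genes are given by their counts. Cd3e, Cd247, Cd3d, Cd2, Cd7, Il2rg, Lck, the other T cell genes that did not pass, H60c, Cxadr, Casp14 as a suprabasal gene and the genes nearest to single members were chosen after their values were seen. Promoters were aligned locally with Biopython 1.88 (match 2, mismatch -3, gap opening -5, extension -2). Alternatives were another pseudocount, other filters, quantile or median scaling, array weights, title code as a term, codes 11 and 14 or code 44 alone, and leaving out each library.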

Additional observations from a re-analysis of the deposited data

Results flagged for a closer look

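In 28 groups of 4 libraries (the 11 Skint genes, their sum, Cd3g and Zfp750 in each genotype), 3 values stood far from the other 3 of their group by Dixon's criterion, which chance meets in about 1 group of 20. Skint8 in knockout 4 was at 4.11 FPKM, with the other knockouts at 1.16 to 1.42. Skint11 in wild type 3 was at 5.48 FPKM, with the other wild types at 1.33 to 1.97. Cd3g in knockout 3 was at 0.967 FPKM, with the other knockouts at 0.408 to 0.484. No explanation was tested for any of them.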

How the results depend on the processing

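Skint2, Skint5, Skint9 and Skint10 kept their direction and call under all 17 alternatives. The count of members called lower was 4 to 9 when each library was left out in turn, with 9 without knockout 4, 9 with title codes 11 and 14 alone, 9 with array weights and 4 with code 44 alone. Skint6 lost its call without knockout 2, wild type 1 or wild type 2 and with code 44 alone. The count called higher was 0 or 1 on leaving out a library and 0 with codes 11 and 14 alone. Skint4 lay between -0.16 and 0.27 on leaving out a library, at -0.060 with codes 11 and 14 alone and at -0.30 with array weights. The median log2 difference of the 11 members was -1.27 to -0.62 on leaving out a library and -0.31 with code 44 alone. T cell genes called lower, Cd3g included, numbered 4 in the reported fit and 4 to 6 on leaving out a library. They numbered 8 with 1 FPKM in at least 1 library, where 1094 of all 12394 genes were called lower. With no filter they numbered 11, where 1211 of all 15991 genes were. Both settings test more genes. Over all genes, 1123 to 2326 were called on leaving out a library, 474 to 1083 higher and 649 to 1243 lower. Array weights gave 3669, 1942 higher and 1727 lower, and code 44 alone gave 575 lower. The cause of these shifts was not tested. The title numbers pair no samples, since the genotypes share only 1 number. With title code as a block, 6 members were called lower, 1 was called higher and 2261 genes were called in all, 1227 of them lower. FPKM carry no depth, so the precision of single low values is unknown.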

Other observations

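Other gene lists were run in the same fit as context. Of 18 butyrophilin and B7 relatives of the Skint family, 7 were listed and 1 was tested, Cd276, an immune checkpoint ligand (-0.12 ± 0.32, limma adjusted p = 0.841). Of 13 tested hair follicle genes Lrig1, a stem cell regulator, rose (0.89 ± 0.26, limma adjusted p = 0.0459) and Krt79, a keratin of the upper follicle, fell (-1.38 ± 0.17, limma adjusted p = 5.90e-04), with a median log2 difference of 0.50. None of 11 melanocyte, 8 fibroblast and 1 endothelial genes tested passed limma, with medians of 0.50, 0.49 and 0.12, and no mast cell gene was tested. Knockout 4 had the lowest sums of the knockouts for the melanocyte (20.9 FPKM), fibroblast (98.0 FPKM) and endothelial (0.464 FPKM) lists. It also had the highest level of every Skint gene among the knockouts. Wild types 1 and 2 had lower sums than wild types 3 and 4 for the same lists, and a higher summed Skint level. For melanocytes these sums were 16.7 and 38.0 FPKM against 59.8 and 101 FPKM. Knockout 3, of code 44 like knockout 4 and wild types 1 and 2, had 96.3 FPKM for melanocytes.

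Outside the pair of Skint9 and Skint10, the single genes of nearest pattern were not of the family. Skint1 was nearest to Clip4, Skint3 to Susd2, Skint5 to Naaa, Skint6 to Gal3st4 and Skint2 to Otop3, at 0.08 to 0.14 on the log2 scale. Skint11 was nearest to Chit1, the gene of the chitinase chitotriosidase, which was at 137 to 202 FPKM in the knockouts and 39.3 to 98.9 FPKM in the wild types. Skint1 ranked 2 among all tested genes in nearness to Skint7, at 0.34. Other pairs of members were closer, such as Skint3 and Skint6 (0.20), Skint1 and Skint3 (0.21) and Skint8 and Skint1 (0.21).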
